A study of Mus musculus with 7 samples.

Results

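The 8 genes described here are grouped as transcription factors of the arcuate nucleus: Nkx2-1, Tbx3, Nhlh2, Isl1, Bsx, Prdm12, Sox14 and Nr5a2. All probe sets that the array annotation assigns to only 1 symbol, that symbol being one of these 8, were taken. This gave 14 of 45037 probe sets, which read 6 of the 8 genes, of 18193 genes with such a probe set. Tbx3 had 5 probe sets, Nr5a2 had 4, Isl1 had 2, and Nkx2-1, Nhlh2 and Sox14 had 1 each. Bsx and Prdm12 had none in the annotation used here and were not analysed.

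Hypothalami of 3-month-old mice were profiled on Affymetrix mouse430_2 expression arrays, 1 array per sample. The 3 knockout arrays came from mice labelled Creb-PomcCre-/-, in which Creb is removed where a Cre recombinase driven by Pomc is made, and the 4 wild-type arrays came from mice labelled wild type. Samples of a genotype are numbered in the labels as biological replicates. Pooling of mice is not mentioned there, nor whether wild-type mice carried the Cre or an engineered Creb allele. The design asks which genes lie downstream of CREB in arcuate neurons that control appetite. The whole hypothalamus was taken, so that Pomc cells are a small part of each sample, and fewer cells of a type and less RNA per cell cannot be told apart.

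The arcuate nucleus lies at the base of the hypothalamus and holds the neurons that sense leptin and other signals of energy stores. Neurons that make Pomc peptides suppress feeding, and their neighbours that make Npy and Agrp promote it. Nkx2-1, Isl1 and Prdm12 are homeodomain, LIM-homeodomain and PR-domain factors needed for Pomc to be switched on in the embryo. The T-box factor Tbx3 maintains the identity of melanocortin neurons, and the homeodomain factor Bsx acts in the Npy and Agrp neurons. Nhlh2 is a basic helix-loop-helix factor whose loss makes mice obese. CREB is a cyclic AMP-responsive activator that binds the palindrome TGACGTCA or its core TGACG.

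The arrays resembled each other, with correlations of 0.994 to 0.997 over probe sets and medians of 6.19 to 6.24 on the log2 scale. Creb1 itself was at 9.45 ± 0.027 (SD, n = 3) in the knockout and 9.49 ± 0.083 (SD, n = 4) in wild type at its brightest probe set. It differed by -0.04 ± 0.054 (SE) there (limma, adjusted p = 0.816), and over its 6 probe sets the differences ran from -0.11 to 0.18. These values do not check the labels, since most cells of the tissue keep Creb1, and where these probes lie with respect to the deletion was not looked up here. Of 16 genes that define the hypothalamus, Nkx2-1 among them, 15 were measured and averaged 9.96 to 10.03 per knockout array and 9.78 to 10.13 per wild-type array. By the mean over each list, wild-type arrays 2 and 3 stood apart in markers of meninges and fibroblasts. Wild-type array 2 also did so in those of thalamus and habenula, where wild-type array 4 came next. The 19 thalamus and habenula markers averaged 8.40 to 8.90 in the knockout arrays and 8.35, 9.55, 8.60 and 9.02 in wild-type arrays 1 to 4. The 20 measured markers of meninges and fibroblasts averaged 6.53 to 6.91 in the knockout arrays and 6.54, 7.68, 8.49 and 6.76 in wild-type arrays 1 to 4.

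None of the 14 probe sets of arcuate transcription factors passed the threshold in the knockout against wild type. The adjusted p-values, over all probe sets, ran from 0.428 to 0.935 (limma, threshold 0.05). The SEs of the differences were 0.060 to 0.33, and a difference that misses the threshold is not shown to be absent. Over all 45037 probe sets, 3 passed, or 0.00666%. At an unadjusted p under 0.05 (limma) stood 2 of the 14, Nkx2-1 and the brightest Tbx3 probe set, both higher in the knockout. Of all probe sets, 10.6% stood under that p in either direction, and 5.55% did so with the knockout higher. The knockout mean was the higher one for 12 of the 14 probe sets and for the brightest probe set of all 6 measured genes, against 53.2% of all probe sets and 51.5% of all genes. The median log2 difference, knockout minus wild type, was 0.16 over the 6 genes and 0.14 over the 14 probe sets, and 0.0036 over all genes and 0.0084 over all probe sets. Without wild-type array 2 these medians were 0.11 and 0.077, and without wild-type arrays 2 and 3 they were 0.092 and 0.065, with 10 of 14 probe sets and 5 of 6 genes higher in the knockout both times. Probe sets of a gene share its RNA, and the members share their arrays, so that these counts are not independent.

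**Figure D1:**
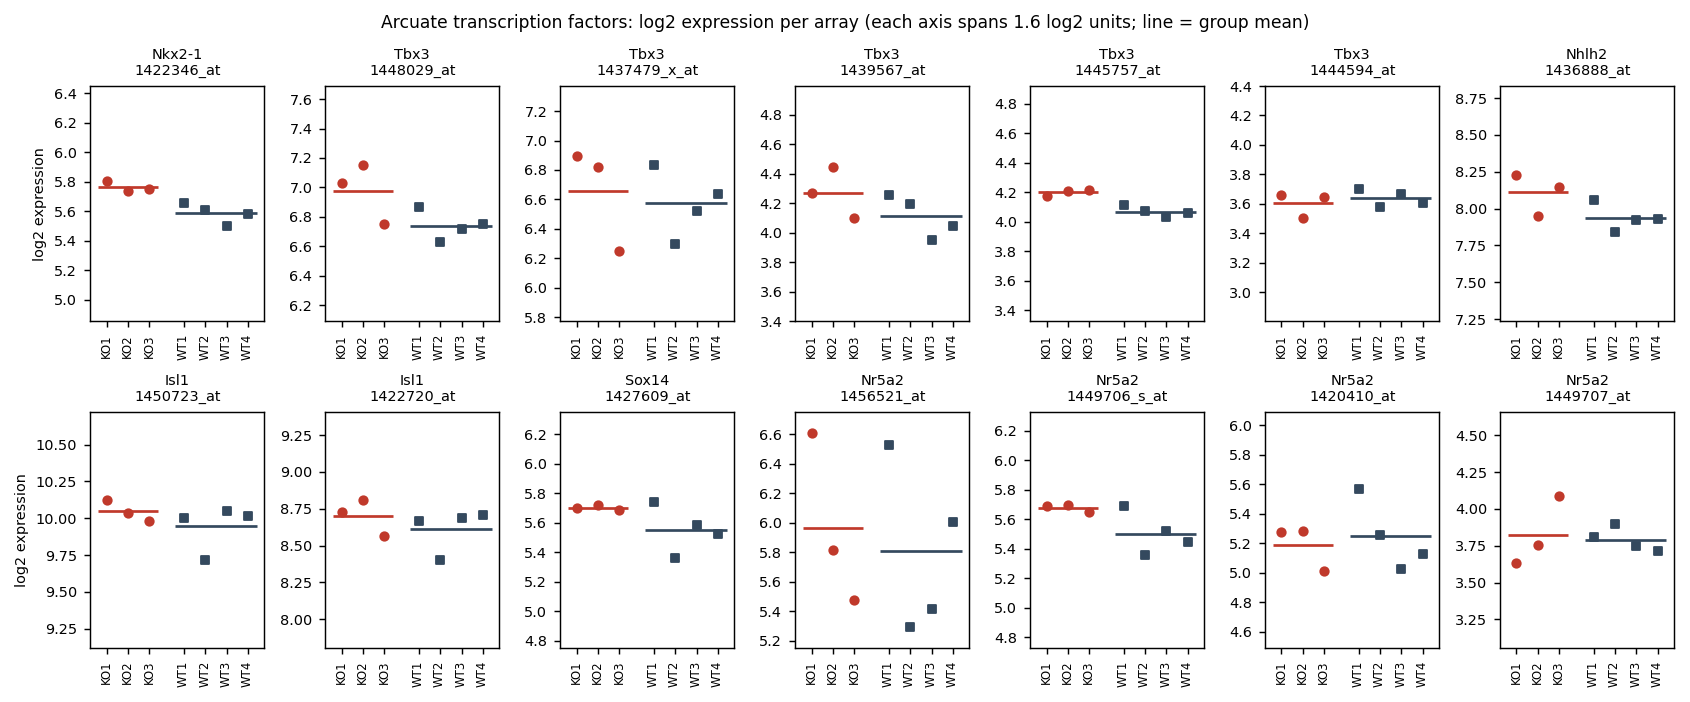
Log2 expression (y axis) of the 14 probe sets in each array (x axis), with the 3 knockout arrays (KO, red circles) left of the 4 wild-type arrays (WT, dark squares). Lines are group means, and every y axis spans 1.6 log2 units. Nkx2-1 and the Tbx3 probe set 1445757_at are the 2 panels in which all knockout arrays lie above all wild-type arrays.

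Nkx2-1 patterns the ventral hypothalamus and stays on in arcuate neurons. Its probe set 1422346_at read 5.80, 5.74 and 5.75 in knockout arrays 1 to 3, and 5.65, 5.61, 5.50 and 5.58 in wild-type arrays 1 to 4. Every knockout array lay above every wild-type array, as for 6.02% of all probe sets. The reverse, seen for 5.02% of all probe sets, occurred for 0 of the 14. The means were 5.76 ± 0.034 (SD, n = 3) in the knockout and 5.59 ± 0.064 (SD, n = 4) in wild type. The log2 difference of 0.18 ± 0.070 (SE), with a 95% interval of 0.020 to 0.335, missed the threshold (limma, adjusted p = 0.428). The level was below the median of all probe sets, 6.22, and these values carry no detection call, so that a dim level cannot be told from background. Among probe sets of similar level, the middle of the distribution was at 0.017 and the 5th and 95th percentiles were at -0.23 and 0.22.

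Tbx3 keeps Pomc and Agrp neurons in their mature state. Its brightest probe set, 1448029_at, read 7.03, 7.15 and 6.75 in the knockout arrays, against 6.87, 6.63, 6.72 and 6.75 in the wild-type arrays. Knockout arrays 1 and 2 lay above all wild-type arrays, and knockout array 3 lay among them. The difference of 0.24 ± 0.10 (SE), the largest of the 14, missed the threshold (limma, adjusted p = 0.463). It was 0.15 when knockout array 2 was left out and 0.35 when knockout array 3 was.

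The other 4 Tbx3 probe sets differed in sign and size. The probe set 1445757_at read 4.17, 4.21 and 4.22 in the knockout arrays, and 4.11, 4.07, 4.03 and 4.06 in the wild-type arrays. It was the second probe set without overlap, with a difference of 0.13 ± 0.060 (SE) at a dim level (limma, adjusted p = 0.484). The dim 1439567_at differed by 0.16 ± 0.10 (SE) and the dim 1444594_at by -0.03 ± 0.066 (SE), with overlapping groups. The probe set 1437479_x_at, whose suffix marks probes that may match other sequences, spread widely within both groups, at 6.25 to 6.89 in the knockout and 6.30 to 6.83 in wild type. Its difference was 0.08 ± 0.17 (SE).

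Isl1 binds the neuronal enhancers of Pomc and is also made by striatal and other neurons. Its brighter probe set, 1450723_at, read 10.12, 10.04 and 9.98 in the knockout arrays, against 10.003, 9.72, 10.05 and 10.02 in the wild-type arrays. Wild-type array 2 was the low one, and the other 3 wild-type arrays lay among the knockout arrays. The means were 10.05 ± 0.072 (SD, n = 3) in the knockout and 9.95 ± 0.15 (SD, n = 4) in wild type, a difference of 0.10 ± 0.080 (SE) that did not pass (limma, adjusted p = 0.678). Without wild-type array 2 the difference was 0.024. The second Isl1 probe set, 1422720_at, read 8.73, 8.81 and 8.57 in the knockout arrays, against 8.67, 8.40, 8.69 and 8.71 in the wild-type arrays. It repeated the low value of wild-type array 2, with a difference of 0.09 ± 0.089 (SE). The 95% interval of the brighter probe set ran from -0.08 to 0.28.

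Nhlh2 acts in adult Pomc neurons, where it is reported to switch on the prohormone convertase gene Pcsk1. Its probe set 1436888_at read 8.23, 7.95 and 8.15 in the knockout arrays, against 8.06, 7.84, 7.93 and 7.93 in the wild-type arrays. Knockout arrays 1 and 3 lay above all wild-type arrays, and knockout array 2 lay below wild-type array 1. The difference of 0.17 ± 0.081 (SE) missed the threshold (limma, adjusted p = 0.494), with a 95% interval of -0.01 to 0.35. It was 0.11 when knockout array 1 was left out and 0.25 when knockout array 2 was. Of probe sets of similar level, 5% lay above 0.15.

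Sox14 is a repressor of the Sox family known from GABA neurons of the diencephalon. Its probe set 1427609_at read 5.70, 5.72 and 5.69 in the knockout arrays, against 5.74, 5.36, 5.58 and 5.53 in the wild-type arrays. The knockout arrays were close together, with an SD of 0.017 (n = 3) beside 0.16 (n = 4) in wild type, and wild-type array 1 lay above them. The difference of 0.15 ± 0.093 (SE) missed the threshold (limma, adjusted p = 0.591), and it was 0.085 without wild-type array 2. The level was below the median of all probe sets.

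Nr5a2 is a nuclear receptor best known for control of bile acid synthesis in liver, and it has been reported to act on the Kiss1 gene in arcuate neurons. Its probe set with the highest mean, 1456521_at, read 6.61, 5.82 and 5.47 in the knockout arrays, against 6.53, 5.29, 5.42 and 6.01 in the wild-type arrays. The groups overlapped almost fully, and the spread within each was the widest of the 14 probe sets, with SDs of 0.58 (n = 3) in the knockout and 0.57 (n = 4) in wild type. The difference of 0.16 ± 0.33 (SE) missed the threshold (limma, adjusted p = 0.892), and its 95% interval of -0.59 to 0.91 leaves its direction unsettled. It was -0.17 when knockout array 1 was left out and -0.017 when wild-type array 2 was.

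A tighter Nr5a2 probe set, 1449706_s_at, read 5.69, 5.70 and 5.65 in the knockout arrays, against 5.69, 5.36, 5.52 and 5.44 in the wild-type arrays. Knockout arrays 1 to 3 lay above wild-type arrays 2 to 4 and level with wild-type array 1, and the difference of 0.18 ± 0.089 (SE) missed the threshold (limma, adjusted p = 0.518). The remaining 2 Nr5a2 probe sets, 1420410_at and 1449707_at, differed by -0.06 ± 0.13 (SE) and 0.03 ± 0.11 (SE). All 4 lay below the median level of all probe sets.

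**Figure D2:**
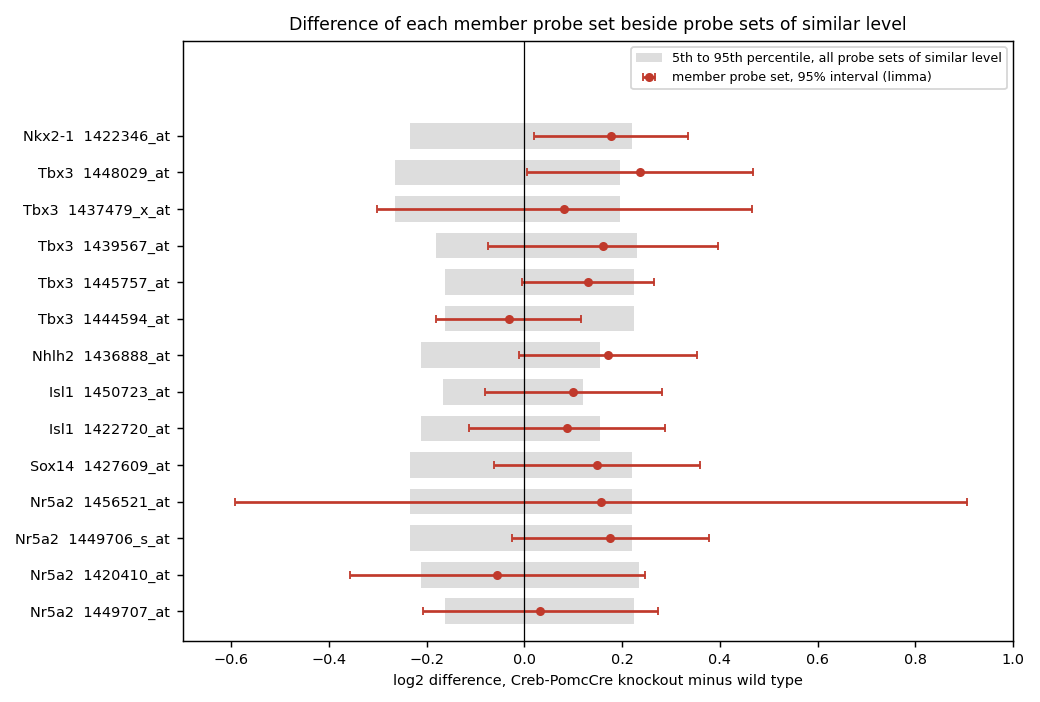
Log2 difference, knockout minus wild type (x axis), of each of the 14 probe sets (rows), with limma's 95% interval. Grey bars run from the 5th to the 95th percentile of all probe sets in the same one of 10 bins by mean level. For 12 of the 14 the interval includes 0, and the exceptions are Nkx2-1 and the Tbx3 probe set 1448029_at.

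The sequence before a gene's start bears on the question of the study, since CREB acts by binding there. RefSeq promoter windows of build GRCm38.p6, from 250 bases before to 50 bases after the annotated start, were matched for 7 of the 8 genes by symbol, in 8 windows, with 2 for Nr5a2. Tbx3 was not matched. Both strands were searched for TGACGTCA, for its core TGACG, which every copy of the palindrome also holds, and for CAGCTG, a form of the E-box that helix-loop-helix factors such as Nhlh2 bind. The palindrome was in 0 of the 8 windows and in 1.79% of all 32851 windows. The core was in 2 of the 8, those of Nkx2-1 and Isl1, and in 20.8% of all windows. CAGCTG was in 3 of the 8, those of Nhlh2, Bsx and Isl1, and in 16.3% of all windows. The windows of Nkx2-1 (chr12:56536859-56537158, minus strand), Isl1 (chr13:116309639-116309938, minus strand) and Nhlh2 (chr3:102009895-102010194, plus strand) are shown because they hold these matches in measured genes, 5′ to 3′ on the gene's strand, with TGACG, its complement CGTCA and CAGCTG in capitals.
Nkx2-1: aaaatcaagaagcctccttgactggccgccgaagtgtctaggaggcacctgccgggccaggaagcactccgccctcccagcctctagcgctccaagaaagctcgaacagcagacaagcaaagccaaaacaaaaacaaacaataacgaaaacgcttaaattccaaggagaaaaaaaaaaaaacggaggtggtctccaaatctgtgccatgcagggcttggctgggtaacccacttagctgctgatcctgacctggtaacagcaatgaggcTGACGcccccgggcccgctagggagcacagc
Isl1: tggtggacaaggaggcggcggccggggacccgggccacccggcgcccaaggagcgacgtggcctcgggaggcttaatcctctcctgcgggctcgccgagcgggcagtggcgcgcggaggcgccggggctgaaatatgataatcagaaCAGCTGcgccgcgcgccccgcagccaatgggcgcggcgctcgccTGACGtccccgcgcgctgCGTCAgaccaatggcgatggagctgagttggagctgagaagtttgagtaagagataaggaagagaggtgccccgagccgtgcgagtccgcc
Nhlh2: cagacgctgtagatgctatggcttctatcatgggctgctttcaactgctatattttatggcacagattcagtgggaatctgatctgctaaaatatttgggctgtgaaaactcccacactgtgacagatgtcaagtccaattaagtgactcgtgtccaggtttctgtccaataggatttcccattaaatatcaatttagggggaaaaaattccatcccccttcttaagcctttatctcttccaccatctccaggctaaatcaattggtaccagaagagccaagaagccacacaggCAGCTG
The Nkx2-1 match lies 20 to 24 bases into the transcript, and the Isl1 matches to the core begin at positions -59 and -41 from the start, on opposite strands. The CAGCTG of Nhlh2 fills bases 45 to 50 of its transcript. The Isl1 window was rich in G and C, at 69.0%, beside 53.7% for Nkx2-1, 43.3% for Nhlh2 and a median of 52.7% over all windows. These matches describe the letters and no binding was measured. Nkx2-1 and Isl1 differed by 0.18 and 0.10 in the knockout, beside 0.17 for Nhlh2, 0.15 for Sox14 and 0.16 for Nr5a2, whose windows hold no TGACG. Tbx3, at 0.24, had no window. None of these differences passed the threshold, and a link between them and the matches was not tested.

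The spread between arrays was shared by several of the factors. Wild-type array 2 was the lowest of the 7 arrays for 5 of the 6 brightest probe sets (Tbx3, Nhlh2, Isl1, Sox14 and Nr5a2) and for 7 of all 14, where it was the lowest for 16.6% of all probe sets. For Nkx2-1 the lowest was wild-type array 3. A knockout array was the highest for 5 of the 6, and for Sox14 wild-type array 1 was. The same wild-type array 2 held the highest mean of the thalamus and habenula markers, and the lowest mean of the hypothalamus markers, 9.78. Tissue composition was not measured, and the part of these marker differences in the differences of the transcription factors was not tested.

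**Figure D3:**
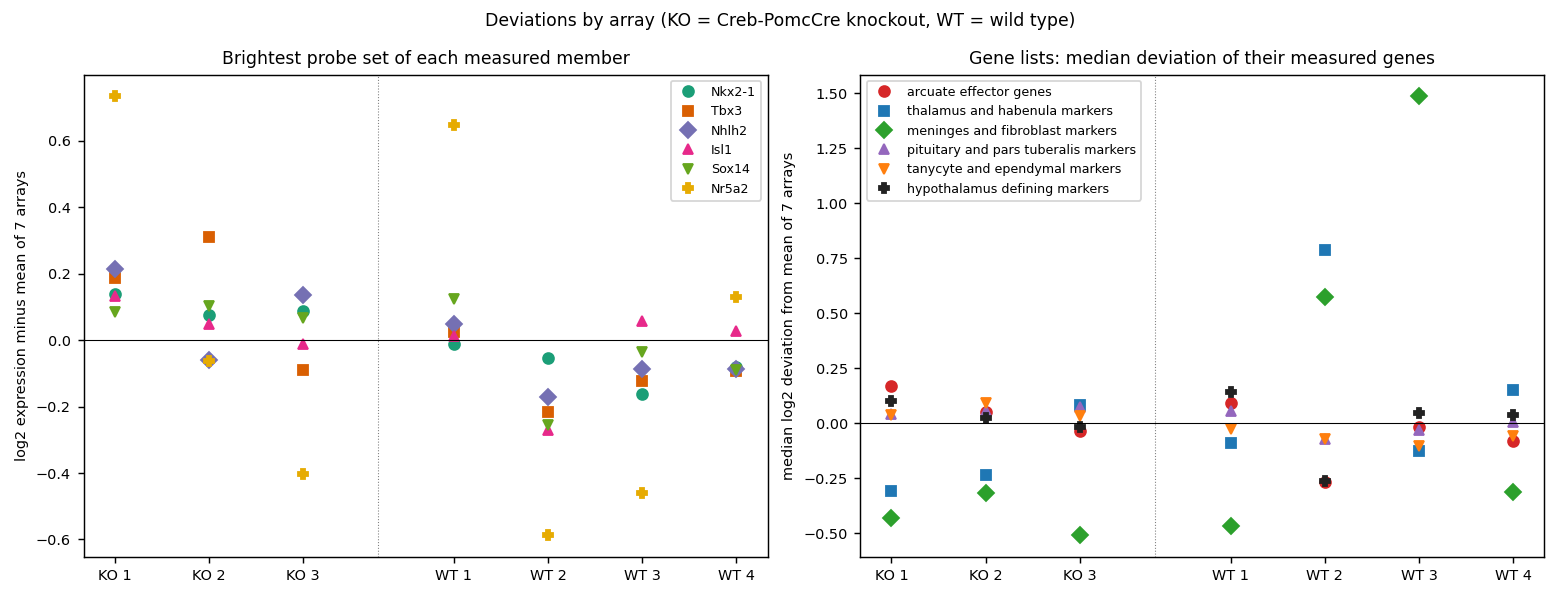
Left, log2 expression minus the mean of the 7 arrays (y axis) for the brightest probe set of each measured factor. Right, the median of such deviations over the measured genes of 6 lists. The 3 knockout arrays (KO) are left of the 4 wild-type arrays (WT). Wild-type array 2 is low for 5 of the 6 factors and for the arcuate effector genes (-0.27), and high for thalamus markers (0.79), while wild-type array 3 is high for meningeal markers (1.49).

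By the mean absolute difference of centred log2 values over the 7 arrays, among genes that varied at least as much, the patterns most like that of Isl1 were those of Alkbh6 (0.026) and Sst (0.036), where Isl1 deviated by 0.080 on average. The gene nearest to Sox14 was Pou3f4, at 0.027, followed by the dopamine receptor gene Drd2, also at 0.027. Those nearest to Nkx2-1 were Gipr, the receptor for the gut hormone GIP, at 0.021 and Bmp8b at 0.023. Those nearest to Tbx3 were Sult2a8 and 1700034G24Rik, at 0.048 and 0.049, and those nearest to Nhlh2 were 4930579K19Rik and Cyp11a1, at 0.035 and 0.038. Nr5a2 was matched less closely, by Slc15a2 at 0.24 and Gm4349 at 0.31, where Nr5a2 deviated by 0.43. With 7 arrays and 155 to 8096 candidate genes per factor, close matches are to be found for any gene, and these are descriptions.

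Of 21 peptide, receptor and other effector genes listed for the arcuate nucleus, 18 were measured, and 14 had the higher mean in the knockout. In either direction 0 passed over all genes, where 0.011% of genes passed. The differences had a median of 0.14 and ran from -0.25 for the estrogen receptor gene Esr1, named after its value was seen, to 0.50 for Gpr50. Pomc read 10.30, 9.68 and 9.66 in the knockout arrays, against 10.28, 9.24, 9.49 and 9.69 in the wild-type arrays. Array 1 of each genotype was the high one, and Pomc differed by 0.21 ± 0.24 (SE) (limma, adjusted p = 0.765). Npy read 9.71, 10.81 and 10.68 in the knockout arrays, against 9.99, 10.05, 10.36 and 10.61 in the wild-type arrays. It spread by more than 1 log2 unit within the knockout, and differed by 0.15 ± 0.26 (SE) (limma, adjusted p = 0.850). Agrp had no probe set of its own in the annotation used here. The smallest unadjusted p-values in the list were those of Gpr50, an orphan receptor of tanycytes at 0.50 ± 0.16 (SE), Crabp1, a retinoic acid-binding protein gene at 0.41 ± 0.13 (SE), and the opioid precursor gene Pdyn at 0.31 ± 0.13 (SE), with adjusted p-values of 0.321 to 0.422 (limma). Gpr50 is also on the list of tanycyte and ependymal markers given below. The median of the effector genes was 0.068 without wild-type array 2.

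Genes reported as targets of these factors were a list of 14, of which 9 were measured. The mean of all 9 was higher in the knockout (median 0.19), 0 passed in either direction, and 7 of the 9 were lowest in wild-type array 2. Examples were Adcyap1, a neuropeptide gene downstream of Nkx2-1, at 0.28 ± 0.11 (SE) and Pcsk1, the convertase gene downstream of Nhlh2, at 0.27 ± 0.16 (SE), followed by the dopamine synthesis gene Th at 0.23 ± 0.15 (SE). Pcsk1 read 8.37, 8.10 and 7.999 in the knockout arrays, against 8.25, 7.51, 7.91 and 7.88 in the wild-type arrays. Without wild-type array 2 the median was 0.10 and 8 of the 9 were higher, and without wild-type arrays 2 and 3 it was 0.078 with 7 of 9. The list shares Pomc, Npy, Ghrh, Sst and Th with the effector genes.

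Relatives from the same protein families did not pass, with 0 of 20 measured genes past the threshold in either direction, 12 higher and 8 lower in the knockout (median 0.062). Nkx2-9, a relative of Nkx2-1, differed by 0.28 ± 0.10 (SE), Sox21, a relative of Sox14, by 0.11 ± 0.044 (SE), and Nr5a1, the relative of Nr5a2 that marks the ventromedial nucleus, by 0.24 ± 0.097 (SE). Their adjusted p-values were 0.358 to 0.389 (limma). All knockout values lay above all wild-type values for 4 of the 20, these 3 and Nkx2-5 at 0.19. They all lay below for 1, the Sox family gene Sox2 at -0.11. Over all genes the shares were 6.09% and 6.05%. The last 2 genes were chosen after their values were seen. The median of the relatives was 0.010 (11 of 20 higher) without wild-type array 2 and -0.0058 (8 of 20 higher) without wild-type arrays 2 and 3. Of 37 measured genes in a list of other hypothalamic transcription factors, 0 passed, with 18 higher and 19 lower (median -0.0058, or -0.041 without wild-type array 2). That list was not restricted to regions outside the arcuate nucleus. It shares Nr5a1, Sox2, Sox3, Nkx2-2, Nkx2-4 and Barhl1 with the relatives. The named members of that list were Zfhx3, of the suprachiasmatic nucleus, at -0.37 ± 0.072 (SE), Foxb1, of the mammillary body, at 0.25 ± 0.076 (SE), and Onecut3 at 0.20 ± 0.073 (SE), with adjusted p-values of 0.203 to 0.359 (limma).

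**Figure D4:**
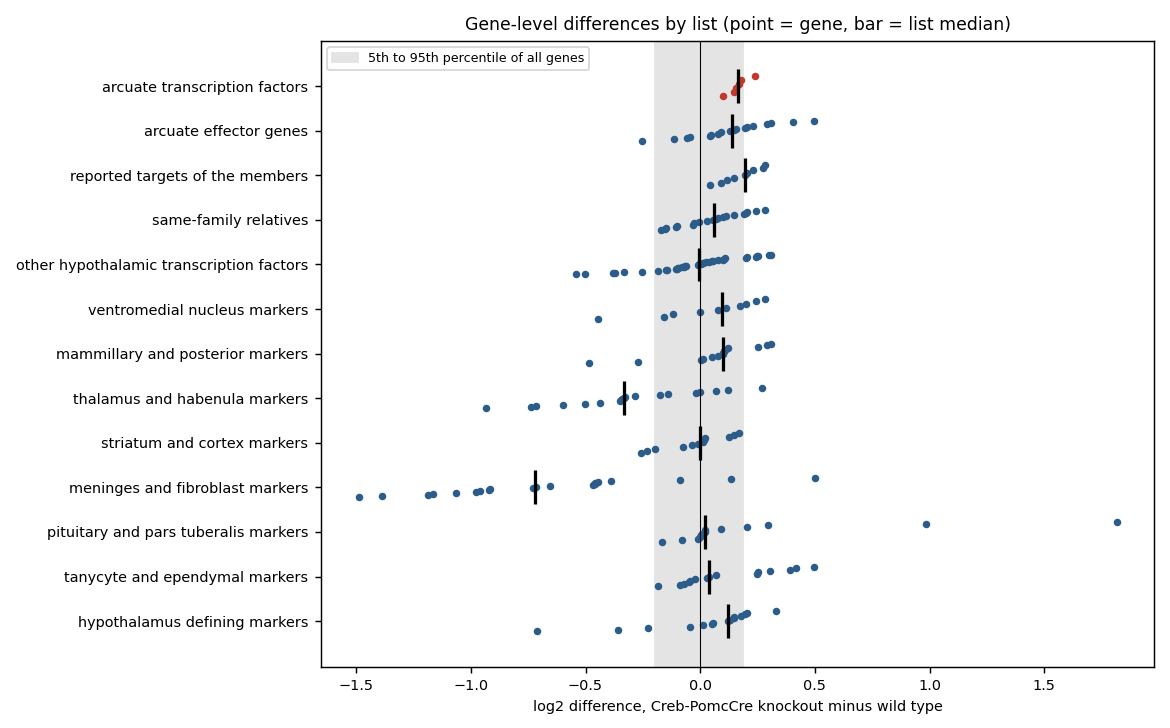
Log2 difference, knockout minus wild type (x axis), of every measured gene (points) in each list (rows), with the list's median as a black bar and the 5th to 95th percentile of all genes (-0.19 to 0.19) in grey. The 6 arcuate transcription factors lie between 0.10 and 0.24, and the meningeal and thalamic markers spread furthest to the left.

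Markers of cells and regions near the arcuate nucleus were read the same way, and 0 genes of these lists passed over all genes. The ventromedial list had a median of 0.096 (7 of 10 higher), with Rreb1 at -0.45, and the mammillary list 0.098 (12 of 14 higher), with Foxa1 at 0.31. Without wild-type arrays 2 and 3 these medians were 0.051 and -0.036. Tanycyte and ependymal markers had a median of 0.040 (9 of 15 higher), with Mia at 0.25 and Rax at 0.25, and pituitary and pars tuberalis markers 0.021 (9 of 13 higher), with Tshb at 1.82 ± 0.62 (SE). Tshb missed the threshold (limma, adjusted p = 0.343). It read 6.78 to 7.94 in the knockout arrays, and 7.54, 5.37, 4.64 and 4.98 in wild-type arrays 1 to 4. The pituitary list averaged 5.94 to 6.05 in the knockout arrays and 6.08, 5.67, 5.62 and 5.61 in wild-type arrays 1 to 4. Its median was 0.00017 (7 of 13 higher) without wild-type array 2 and -0.022 (5 of 13 higher) without wild-type arrays 2 and 3, where the tanycyte list had 0.079 and 0.070. Markers of the striatum, which also makes Isl1, and of cortex had a median of 0.00035 (6 of 12 higher), or -0.022 without wild-type array 2, with Cux2 at -0.26. Thalamus and habenula markers had a median of -0.33 (3 of 19 higher), with Amotl1 at -0.17 and Adarb1 at -0.33. The 3 higher ones were Pou4f1 at 0.27, Chrnb4 at 0.12 and Tac1 at 0.070. For Pou4f1 and Tac1 wild-type array 2 was the lowest array, so that these markers did not all go the same way. Meninges and fibroblast markers had a median of -0.72 (2 of 20 higher), with Bmp6 at -0.73 and Igfbp2 at -1.17. The 2 higher ones were the fibroblast genes Col1a1 at 0.50 and Lum at 0.14, and Dcn differed by only -0.09. Without wild-type arrays 2 and 3 the thalamic and meningeal medians were -0.13 and -0.00030. The hypothalamus markers had a median of 0.12 (11 of 15 higher), with Hcrt at 0.33, and -0.063 without those 2 arrays.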

How the data were processed

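Log2 expression values of 7 arrays, 3 knockout and 4 wild type, were used as the authors deposited them. The submitters' processing notes list R 2.10.0, affy and RMA. As commonly run, RMA forces 1 intensity distribution on all arrays, which removes differences in overall signal, and it makes no detection call, so that dim values may be background. The number of arrays limits the precision.

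Of 45101 probe sets, 64 controls were left out. Of the 45037 tested, 34945 carried 1 gene symbol, 932 several and 9160 none. RefSeq's gene table of GRCm38.p6 held the identifiers of 34741, and 0 symbols changed. The genotypes were compared in limma 3.58.1, run in R 4.3.3 (lmFit, eBayes with an intensity trend, two-sided, Benjamini-Hochberg, threshold 0.05), over all probe sets for the transcription factors and over 18193 genes, each by its probe set with the highest mean, for the lists. Each SE and 95% interval is limma's, and each SD is taken over arrays. The fits were checked on simulated data.

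Arrays with the same number deviated together from their group means over all probe sets, with correlations of 0.258, 0.114 and 0.156 for numbers 1 to 3. Arrays with different numbers correlated at -0.240 to 0.094. Arrays numbered 1 also read as female and those numbered 2 and 3 as male, from Xist and the Y-linked Eif2s3y. A shared number thus also meant a shared sex. Pairs that shared a sex but not a number correlated at 0.063 (knockout 1, wild type 4), 0.010 (knockout 2, wild type 3) and 0.094 (knockout 3, wild type 2). Whether the numbers pair the samples is not known. The main fits did not pair them, and pairing by number was run as an alternative. No pair of arrays held identical values. Alternatives were a floor on mean level, eBayes without the trend, array weights, another normalization, sex, pairing, the probe set of a gene and leaving out arrays.

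Named genes are all members with every probe set, Pomc and Npy, up to 3 genes per list with the smallest unadjusted p, and 2 genes per factor with the nearest pattern. Further genes (Creb1, the genes of the sex check) were added for checks. The members and lists were chosen with earlier results of these data known. Sequences are RefSeq's. Their orientation was checked by TATAAA at 35 to 21 bases before the start, which 278 minus-strand windows held as given and 47 after reverse complement. Figures used matplotlib 3.10.9 in Python 3.11.15.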

Additional observations from a re-analysis of the deposited data

Results flagged for a closer look

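Isl1 was singled out in wild-type array 2. In the 4 wild-type arrays its probe set 1450723_at read 9.72 there and 10.003 to 10.05 in the others, and the gap was 0.862 of the group's range, above the critical value of Dixon's test for 4 values. The second Isl1 probe set, 1422720_at, read 8.40 in the same array and 8.67 to 8.71 in the others, with a gap of 0.858 of the range. The wild-type values of 14 probe sets were examined this way, and chance marks about 1 in 20 such groups. Both probe sets measure the same RNA.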

How the results depend on the processing

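None of the 14 probe sets of arcuate transcription factors passed under any alternative run, and 0 of 93 recomputed differences of the 6 measured genes did. These took a gene's brightest probe set or, in 1 alternative, the mean of its probe sets. Nkx2-1 kept its direction throughout (0.15 to 0.20), as did Tbx3 (0.12 to 0.35), Nhlh2 (0.11 to 0.25), Isl1 (0.024 to 0.13) and Sox14 (0.068 to 0.21). Nr5a2 reversed to -0.30 without wild-type arrays 2 and 3, and ran from -0.17 to 0.40 over the fits that leave out 1 array. The cause was not tested. The median of the 6 lay between 0.11 and 0.21 in those fits and between 0.092 and 0.19 in the others. The count of factor probe sets with a higher knockout mean ran from 10, without knockout array 1 or wild-type array 2, to 13, without wild-type array 1. Following this count over the alternatives was chosen after seeing the data. With dim probe sets dropped, Nkx2-1, Sox14 and Nr5a2 had no value.

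Over all probe sets the count past the threshold was 3, and 5 with sex as a covariate. Leaving out 1 array gave 3 to 46. Dropping wild-type array 1 gave 46 and dropping wild-type array 2 gave 12, and dropping knockout array 1, 2 or 3 gave 16, 9 or 5. Over all genes it was 2, with 7 under array weights, 1 with the mean of a gene's probe sets, and 2 to 21 when 1 array was left out. The 21 came from dropping wild-type array 1, while dropping wild-type array 2 gave 6 and dropping knockout array 1 gave 8. With the replicate number as a block over arrays numbered 1 to 3, 2 probe sets and 2 genes passed, the 6 factors had a median of 0.17, and no call on a factor changed. Dim levels limit what the values of Nkx2-1, Sox14, Nr5a2 and 3 of the Tbx3 probe sets show.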

Other observations

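The Nr5a2 probe set 1456521_at separated the samples by sex, as read from Xist and Eif2s3y. It read 6.01 to 6.61 in the 3 female arrays (knockout 1, wild type 1 and wild type 4) and 5.29 to 5.82 in the 4 male arrays, with no overlap. The female mean was higher by 0.88 on the log2 scale. None of the other 13 probe sets of these factors separated the samples in this way, and the other 3 Nr5a2 probe sets differed by 0.053, 0.18 and -0.15 (female minus male). The share of all probe sets that separate the sexes without overlap was not computed, so it is not known how unusual this is. With sex as a covariate, Nr5a2 differed between knockout and wild type by 0.31. The labels give no sex, and this observation was made after the values were seen and was not tested.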
